A study of Homo sapiens and Mus musculus with 12 samples.

Results

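Cytosolic ribosomal protein genes encode the proteins of the large (RPL) and small (RPS) ribosomal subunits, most of which every growing cell makes in matched amounts. Their mRNAs usually begin with a pyrimidine run, the 5′ terminal oligopyrimidine motif, which couples their translation to growth signals, and many of the genes carry small nucleolar RNAs in their introns. Loss of 1 copy of several of these genes causes Diamond-Blackfan anemia, a failure of red cell production, so their control is of interest in blood cells. The genes were taken from GENCODE release 44 as protein-coding genes whose symbol is RPL or RPS followed by a number and optional letters, together with RPLP0, RPLP1, RPLP2 and RPSA, and without the RPS6K kinases. This gave 82 of 20046 protein-coding genes, 50 of the large and 32 of the small subunit, on 21 chromosomes. The rule also took in relatives whose symbol ends in L, such as RPL3L and RPL10L, and 77 genes remained without them.

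The peak lists of 5 ChIP-seq libraries were searched for peaks at these genes. SPI1, an activator of the ETS family also called PU.1, and GFI1, a zinc finger repressor, were precipitated from THP1 cells, a human monocytic leukemia line. LSD1, a histone demethylase that serves GFI1 as a corepressor, was precipitated from Cas9-expressing K562 cells, a human leukemia line, that carried a non-targeting guide RNA (sg-NT). GFI1 was precipitated from the sg-NT cells and from K562 cells with a guide RNA against LSD1 (sg-LSD1). Each ChIP used 5 μg of antibody on cells crosslinked with DSG followed by formaldehyde. Every condition was 1 library of 1 cell line, so nothing here was checked in a replicate and no p-values between genes or libraries were computed. The guide and Cas9 were delivered by lentivirus, and the study calls the GFI1 antibodies difficult in ChIP-seq. No LSD1 ChIP of the sg-LSD1 cells was analysed here, so the peak lists do not show the level of LSD1 in them. Peaks were called by the authors in each library on its own, and a list holds only the regions that passed the calling threshold. The lists held 160 to 6548 peaks, and a summit was covered by a median of 11 to 13 fragments, a number worked out from the fold enrichment and p of each peak. The lists give no read totals, so weakly bound sites may lie below the threshold.

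A promoter peak was counted where the summit of a peak, its point of highest pileup, lay within 1000 bp of any protein-coding transcript start of the gene. Of the 82 ribosomal protein genes, 8 had a promoter peak in at least 1 of the 5 lists and 74 had none in any list. The 8 genes were RPL6, RPL15, RPL18, RPL19, RPL23A, RPL36AL, RPS3A and RPS29. They made up 9.76% of the ribosomal protein genes, while 2655 of the 19964 other protein-coding genes (13.3%) had a promoter peak in some list.

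RPL23A, whose protein lies at the mouth of the exit tunnel of the large subunit, was the 1 ribosomal protein gene with both a GFI1 peak in THP1 cells and an LSD1 peak in sg-NT K562 cells. The sequence around both summits is shown because the peaks of both cell lines covered it. It is the + strand of GRCh38 from 50 bp before the first to 50 bp after the second summit, chr17:28719321-28719507, upstream of RPL23A, which is read from the + strand. The letters AATCAC, the core of the GFI1 motif, are in capitals.
RPL23A: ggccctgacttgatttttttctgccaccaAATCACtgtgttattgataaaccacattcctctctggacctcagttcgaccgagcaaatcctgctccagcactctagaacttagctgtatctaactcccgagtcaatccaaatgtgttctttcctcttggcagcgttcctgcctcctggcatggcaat
The second sequence belongs to the strongest LSD1 peak at a ribosomal protein gene, that of RPL18, and none of the cores searched was found in its summit window. It is the + strand of chr19:48619690-48619742 in GRCh38, which begins just past an untranslated exon of SPHK2 that is not shown, and RPL18 is read from the opposite strand.
RPL18: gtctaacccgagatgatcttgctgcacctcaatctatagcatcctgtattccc

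In the list of GFI1 in THP1 cells, 4 of the 82 ribosomal protein genes had a promoter peak (4.88%, 95% Wilson interval 1.91% to 11.9%), which were RPL15, RPL19, RPL23A and RPS3A. Among all other protein-coding genes, 942 of 19964 had one (4.72%, interval 4.43% to 5.02%). The share of the ribosomal protein genes was therefore near the background, and the intervals overlapped. These intervals cover counting error only, and genes are not replicates.

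In the list of LSD1 in sg-NT K562 cells, 5 ribosomal protein genes had a promoter peak (6.1%, interval 2.63% to 13.5%), beside 1709 of the other genes (8.56%, interval 8.18% to 8.96%). The 5 genes were RPL6, RPL18, RPL23A, RPL36AL and RPS29. The intervals overlapped here too.

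In the list of SPI1 in THP1 cells, 0 of 82 ribosomal protein genes had a promoter peak, which allows a share of up to 3.66%, and 265 of the other genes had one (1.33%). The background lies under the limit that a count of 0 allows, so a share lower than the background was not detectable with 82 genes. The same held for GFI1 in K562 cells. None of the ribosomal protein genes had a promoter peak in sg-NT cells, where 61 of the other genes did (0.306%), or in sg-LSD1 cells, where 20 of the other genes did (0.1%). These lists of 498 and 160 peaks were the shortest of the 5, and no change of GFI1 at ribosomal protein promoters between sg-NT and sg-LSD1 cells could be read from them.

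Both subunits were represented. Of the 50 large subunit genes, 3 had a GFI1 peak in THP1 cells (6%) and 4 an LSD1 peak in K562 cells (8%), and of the 32 small subunit genes, 1 had a peak in each of these lists (3.12%, interval 0.554% to 15.7%). Among the 19 members known to be mutated in Diamond-Blackfan anemia, RPL15 had a GFI1 peak in THP1 cells, and RPL18 and RPS29 had an LSD1 peak in K562 cells. These are shares of 5.26% (interval 0.935% to 24.6%) and 10.5% (interval 2.94% to 31.4%), near the 4.72% and 8.56% of other genes. The other 16 of these genes had none.

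Other lists of housekeeping genes were counted in the same way. Of the 78 mitochondrial ribosomal protein genes, 2 (2.56%) had a GFI1 peak in THP1 cells and 8 (10.3%) an LSD1 peak in K562 cells. The 48 proteasome subunit genes gave 5 (10.4%) in each of these lists, and 3 of them, PSMB3 and the immunoproteasome genes PSMB8 and PSMB9, had an SPI1 peak. Of the 37 genes for complex I of the respiratory chain, 1 (2.7%) had a GFI1 peak and 6 (16.2%, interval 7.65% to 31.1%) an LSD1 peak. Translation factors were taken by symbol alone, as EIF or EEF followed by a number, so the list also holds related genes such as EEF2K and EIF4ENIF1. Of these 61 genes, 2 (3.28%) had a GFI1 peak, 6 (9.84%) an LSD1 peak and 3 (4.92%) an SPI1 peak. The SPI1 share of all genes outside the cytosolic ribosomal protein genes was 1.33%. Of the 27 genes for ribosome production (RNA polymerase I, its factors and nucleolar proteins), 0 had a GFI1 and 2 (7.41%) an LSD1 peak. None of the genes of these lists had a GFI1 promoter peak in K562 cells. The intervals of all of these lists overlapped that of the cytosolic ribosomal protein genes. FAU, a ribosomal protein gene with another symbol, had a promoter peak of LSD1.

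**Figure D1:**
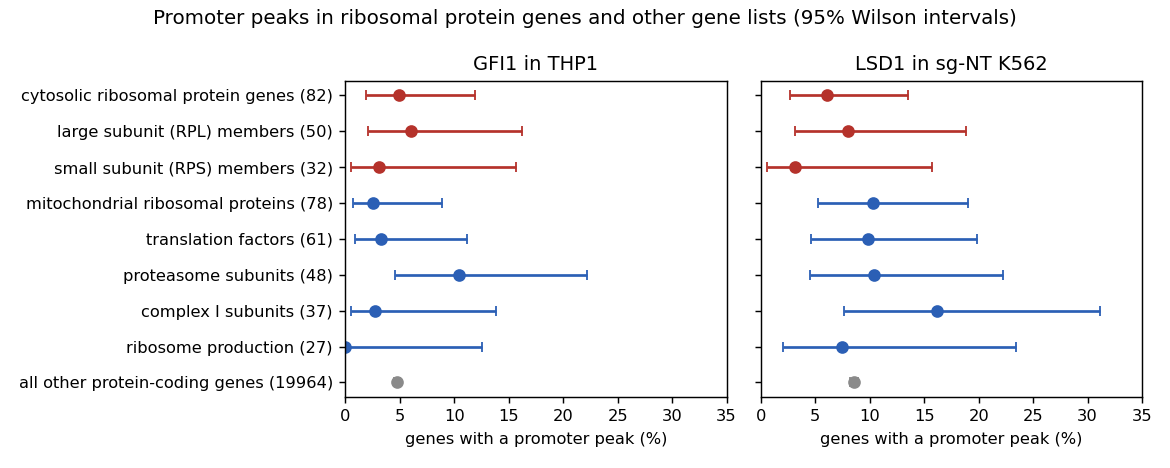
Share of genes with a promoter peak (x axis, %) for GFI1 in THP1 cells (left) and LSD1 in sg-NT K562 cells (right), by gene list (y axis, number of genes in brackets), with 95% Wilson intervals. Ribosomal protein genes (red) stand at 4.88% and 6.1%, beside 2.56% and 10.3% of the mitochondrial ribosomal protein genes (blue).

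The GFI1 peak of RPL23A in THP1 cells lay at chr17:28719197-28719643, with its summit 528 bp upstream of the canonical start, 9.11-fold enrichment over background, a −log10 p of 17.3 and 19 fragments over the summit. The LSD1 peak in K562 cells lay at chr17:28719163-28719640, with its summit 614 bp upstream, 12.9-fold enrichment, a −log10 p of 24.2 and 20 fragments. The peaks shared 444 bp and their summits were 86 bp apart. Both summits lay outside annotated genes, and the start of RAB34, a small GTPase gene, was also within 1000 bp of the LSD1 summit. In their own lists, 23.8% of the GFI1 peaks and 10.6% of the LSD1 peaks had a larger −log10 p. The AATCAC printed in capitals lay 635 bp upstream of the RPL23A start, 21 bp from the LSD1 summit and 107 bp from the GFI1 summit. It was the 1 occurrence in the sequence shown, on either strand. In windows of 101 bp around the summits, AATCAC was present at 17.8% of all GFI1 peaks in THP1 cells and at 5.24% of all LSD1 peaks in K562 cells. At RPL23A it fell in the LSD1 window and not in the GFI1 window.

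RPL23A was 25% of the ribosomal protein genes with a GFI1 peak in THP1 cells and 20% of those with an LSD1 peak in K562 cells. Among other genes, 207 had both, which was 22% of those with the GFI1 and 12.1% of those with the LSD1 peak. With 1 shared gene, no difference from other genes can be read from these shares. No peak of the SPI1 list or of the 2 GFI1 lists of K562 cells overlapped the RPL23A peaks, and the nearest summit of GFI1 in sg-NT cells was 457588 bp from that of GFI1 in THP1 cells.

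The other GFI1 peaks at ribosomal protein genes in THP1 cells were weaker. RPL19, a large subunit gene that runs along the + strand, had a peak at chr17:39199284-39199902 with its summit 866 bp upstream of the start, 6.87-fold enrichment, a −log10 p of 10.3 and 10 fragments. Its peak was the most distant from a start and lay outside annotated genes. RPS3A, a small subunit gene that holds 2 small nucleolar RNA genes, had a peak at chr4:151099198-151099505, 258 bp upstream of the canonical start, with 5.91-fold enrichment, a −log10 p of 9.59 and 13 fragments. RPL15 had a peak at chr3:23916439-23916845 with 6.47-fold enrichment, a −log10 p of 9.84 and 11 fragments. The RPL15 summit lay 463 bp upstream of the canonical start and 78 bp downstream of an earlier start, in untranslated exons of both RPL15 and NKIRAS1, which is read from the opposite strand and encodes a Ras-like protein that acts on NF-kappa-B signalling. The start of NKIRAS1 was nearer to the summit, at 46 bp, so the peak cannot be given to 1 of the 2 genes. The median −log10 p of the 4 peaks was 10.1, beside 11.2 for the promoter peaks of other genes, and RPL23A alone was above that median.

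The LSD1 peaks of K562 cells spanned most of the range of strength in that list. The strongest was at RPL18, a large subunit gene mutated in Diamond-Blackfan anemia, at chr19:48619506-48620036, with 16.4-fold enrichment, a −log10 p of 34.6 and 28 fragments. Its summit lay 514 bp upstream of the canonical start of RPL18, in an exon of a long noncoding RNA on the same strand, and nearer to a start of SPHK2, a sphingosine kinase gene read the other way. In that list 4.18% of the peaks were stronger. RPL6, another large subunit gene, had a peak at chr12:112409652-112410064, 201 bp upstream of the canonical start and inside longer RPL6 transcripts, with 10.5-fold enrichment, a −log10 p of 19.1 and 18 fragments.

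The remaining LSD1 peaks were among the weaker ones. RPS29, a small subunit gene mutated in Diamond-Blackfan anemia, had a peak at chr14:49586695-49587082, 480 bp upstream of the canonical start, with 4.83-fold enrichment, a −log10 p of 8.12 and 14 fragments. The RPS29 summit lay in RN7SL1, the gene of the RNA of the signal recognition particle, and 77.3% of the peaks of the list were stronger. RPL36AL, a close relative of RPL36A, had a peak at chr14:49620688-49620946, 269 bp upstream of its start, with 4.57-fold enrichment, a −log10 p of 5.88 and 7 fragments. That summit lay in an untranslated part of the glycosyltransferase gene MGAT2, whose start was nearer, and in an exon of a long noncoding RNA. In that list 96.5% of the peaks were stronger. The peak at FAU, which encodes a ribosomal protein fused to a ubiquitin-like protein, lay at chr11:65122347-65122764, 356 bp upstream of the canonical start, with 5.79-fold enrichment at a −log10 p of 8.23, and the start of the mitochondrial ribosomal protein gene MRPL49 was also within 1000 bp. FAU is outside the symbol rule and was described after its values were seen.

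The median −log10 p of the 5 LSD1 peaks was 19.1, beside 10.1 for the promoter peaks of other genes, and RPL6, RPL18 and RPL23A were above that median. The median number of fragments was 18 beside 12. With 5 peaks on both sides of the median, no difference in strength can be read from these values.

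The summits at ribosomal protein genes lay upstream of the canonical starts. All 9 were 201 to 866 bp upstream, and none of the peaks covered the canonical start itself. RPL23A is among them in both lists, and the summits at RPL15, RPL18 and RPL36AL were nearer to the start of another gene. Among gene and peak pairs of other genes, 521 of 988 for GFI1 in THP1 cells lay upstream of the canonical start. For LSD1 in sg-NT K562 cells it was 1115 of 1853 pairs. How many peaks of other genes covered a canonical start was not counted. Measured to the nearest annotated start of the gene, all 5 LSD1 summits were more than 200 bp upstream, beside 806 of 1853 gene and peak pairs of other genes (43.5%), and none was within 200 bp, beside 32.5%. For GFI1 in THP1 cells, 3 of 4 summits (75%) were more than 200 bp upstream, beside 345 of 988 pairs (34.9%). With upstream positions written as negative, the median position was -480 bp for LSD1 and -391 bp for GFI1, beside -120 bp and -34 bp for other genes. Ribosomal protein genes had a median of 5 annotated starts and other genes 3, and the part of this in the positions was not tested. With 5 LSD1 and 4 GFI1 summits, no difference in position from other genes can be read from these values.

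Some of these summits lie in repeated sequence. Every word of 32 bases in the 101 bp around a summit was counted in the whole of GRCh38. The reads of the study were paired and longer than these words, and its methods blacklisted regions of low mappability. How well such reads could be placed in these windows was not tested. At RPL19 none of the 70 words was unique and the median word had 4380 copies. At RPL6, 29 of the 70 words were unique and the median was 5 copies, and at RPS29, 32 were unique and the median was 2 copies. All 70 words were unique at RPL23A in both lists and at RPL15, RPL18, RPL36AL and RPS3A. The windows were not all unique at 10.9% of the GFI1 promoter peaks of other genes in THP1 cells and at 20.6% of the LSD1 promoter peaks, and the median word had more than 1 copy at 5.26% and 10.8% of them. Without summits whose median word had more than 1 copy, 3 ribosomal protein genes (3.66%) were left in each list, beside 4.48% of other genes for GFI1 and 7.66% for LSD1. These were RPL15, RPL23A and RPS3A for GFI1 and RPL18, RPL23A and RPL36AL for LSD1. Leaving out a summit in this way was an alternative chosen after the data were seen.

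Some of the ribosomal protein genes with a peak had close neighbours. Of these 8 genes, 5 had another protein-coding gene that starts within 1000 bp of one of their starts. The same was true of 18 of the 74 without a peak. This count was by starts and not by summits, and was not made for other protein-coding genes. At RPL6 and RPS29, which are among the 5, the LSD1 summit lay far from the neighbour. The nearest start of another gene was 9101 bp away for RPL6 (PTPN11) and 11901 bp for RPS29 (LRR1). When each summit was given only to the gene with the nearest start, RPL15 was lost to NKIRAS1, RPL18 to SPHK2 and RPL36AL to MGAT2. This left RPL19, RPL23A and RPS3A for GFI1 (3.66%, beside 4.31% of other genes) and RPL6, RPL23A and RPS29 for LSD1 (3.66%, beside 7.66%). RPL23A was in both lists under this rule as well as without repeated windows. Giving a summit to the nearest start only was likewise chosen after the data were seen. Small nucleolar RNA genes lay in 28 of the 82 genes, 60 in all, and in 2 of the 8 with a peak, RPL23A and RPS3A.

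The starts of the genes with a peak are shown because the pyrimidine run is the feature that ribosomal protein genes share there. Each is 30 bases of GRCh38 on the strand of the gene, 20 before the canonical start and 10 from the start on, and the capitals mark a run of at least 5 pyrimidines that begins with C and lies within 5 bp of the start.
RPL6, chr12:112409596-112409625: cggaagccgggaccttaattCTCTTTCCCa
RPL15, chr3:23917112-23917141: aggagcccaaaaggcattgtgggagtacag
RPL18, chr19:48619169-48619198: cgcccaccccagcccgttCTCTCTTTCCgg
RPL19, chr17:39200263-39200292: gggtttgggctctccCCTTCgcagataatg
RPL23A, chr17:28719965-28719994: ataagcccgtgggaacgagcattggagacc
RPL36AL, chr14:49620617-49620646: tccgcctgtttcttcCCTTTCCTgttaggc
RPS3A, chr4:151099608-151099637: tcgcgcgactcccacttccgCCCTTTTggc
RPS29, chr14:49586371-49586400: gcgcatgcgtgggccagCTTCTTCCTTTTa
A run was present in 6 of these 8 genes and absent at the annotated canonical starts of RPL15 and RPL23A. At RPL19 the run in capitals ended just before the annotated start and did not include it. At RPL19 and RPL36AL the pyrimidines continued upstream of the capitals, beyond the 5 bp searched. Over the 82 genes, 67 had a run (81.7%, interval 72% to 88.6%), beside 4315 of the other genes (21.6%), and 58 had a run of at least 8 bases (70.7%), beside 5.59%.

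Cores of motifs were searched on both strands of the 300 bases from 250 before to 50 after each canonical start, as a description of the sequence and not of binding. CCGGAAG, a core of the ETS family, was found in 28 of the 82 genes (34.1%, interval 24.8% to 44.9%), beside 14% of other genes. RPL6, RPL18, RPL19 and RPS3A were the genes with a peak among them. AAGATGG, a core of YY1, was found in 14 (17.1%, interval 10.5% to 26.6%), beside 6.37%, and lay at RPL6, RPL23A and RPS29. GAGGAAGT, the core of SPI1, was found in 5 genes (6.1%, interval 2.63% to 13.5%), beside 2.52% of other genes. As none of the 82 genes had a promoter peak of SPI1, the core could not be set against binding here. AATCAC was found in 7 genes (8.54%, interval 4.2% to 16.6%), beside 8.41%. RPL19 was the 1 gene of the 7 with a GFI1 peak in THP1 cells, and its summit lay outside this window. The summit windows were searched over their full 101 bp, also at RPL15, RPL18 and RPL36AL, where untranslated regions are not printed. Other than that of LSD1 at RPL23A they held none of these 4 cores, and none held AGATAA, searched as a core of GATA factors. Other forms of the GATA core were not searched, and the LSD1 window of RPL23A holds TGATAA.

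Beyond 1000 bp, a few ribosomal protein genes had a peak within 5000 bp, and the genes named here were chosen by that distance after the data were seen. For GFI1 in THP1 cells these were RPL28, 1432 bp from the start with a fold of 10.9, RPS27 at 3640 bp with a fold of 5.67, and RPL23 at 4134 bp with a fold of 14.3. The RPL28 summit was nearer to the start of TMEM238 and the RPS27 summit to that of RAB13. For LSD1 these were RPL29 at 1455 bp with a fold of 5.52, RPL9 at 1579 bp within LIAS with a fold of 5.12, RPS18 at 1973 bp in an intron with a fold of 6.75, and RPS2 and RPL3L with the same peak in NDUFB10 and a fold of 4.54. The SPI1 list held 1, at RPL10L, 1462 bp from the start, with a fold of 6.37. This brought the counts to 7 (8.54%), 10 (12.2%) and 1 (1.22%) of 82, beside 7.12%, 13.5% and 2.7% of other genes.

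At larger distances the ribosomal protein genes and other genes were compared up to 100 kb. An LSD1 summit lay within 50 kb of 41 ribosomal protein genes (50%, interval 39.4% to 60.6%), beside 36.3% of other genes (interval 35.6% to 37%). Within 100 kb it was 52 genes (63.4%, interval 52.6% to 73%), beside 49.3% (interval 48.6% to 50%). These were the distances at which the LSD1 intervals did not overlap, of the 10 distances counted. The GFI1 list of THP1 cells gave 40.2% within 100 kb (interval 30.3% to 51.1%), beside 34.2%, and the SPI1 list 20.7%, beside 20.9%. A median of 4 other gene starts lay within 100 kb of ribosomal protein genes, beside 3 for other genes, and the part of this gene density in the LSD1 shares was not tested. In sg-LSD1 K562 cells, the ribosomal protein gene closest to a GFI1 summit was RPL6 at 58058 bp.

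Peaks inside the genes were few. A summit lay within the annotated span of 2 ribosomal protein genes for SPI1 (2.44%), 2 for GFI1 in THP1 cells (2.44%) and 5 for LSD1 (6.1%), beside 4.73%, 8.55% and 13.9% of other genes, whose median span was 27612.5 bp against 5440 bp. GFI1 had none in sg-NT and sg-LSD1 cells, beside 1.38% and 0.456% of other genes. RPS9, chosen after its values were seen, had a summit in 3 lists, all beyond the end of its canonical transcript at 54207647 on chromosome 19 and within a longer annotated span that reaches into the LILRB3 locus of leukocyte receptors. The SPI1 peak of THP1 cells at chr19:54208058-54208486, 592 bp past that end, showed 16.6-fold enrichment, a −log10 p of 33.2 and 25 fragments. It overlapped a GFI1 peak of THP1 cells at chr19:54207962-54208440 with 9.50-fold enrichment, a −log10 p of 16.2 and 15 fragments. An LSD1 peak of K562 cells at chr19:54210028-54211171, 3217 bp past the end, showed 18.5-fold enrichment, a −log10 p of 44.3 and 37 fragments. The RPS9 span held another GFI1 peak of THP1 cells and another LSD1 peak of K562 cells, both with summits within LILRB3. That GFI1 summit lay 58 bp from the LILRB3 start, with 8.75-fold enrichment, and that LSD1 peak showed 9.74-fold enrichment. In canonical transcripts of ribosomal protein genes, the 2 summits found were both of LSD1 and intronic, at RPS18 and at RPL3L with a fold of 5.47.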

How the data were processed

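Of the 12 samples, 7 (3 inputs and 4 mouse H3K4me1 libraries) have no peak list used here. Per the submitters' notes and the paper's methods, the authors used Trim Galore 0.6.1, Bowtie2 2.5.4 (GRCh38), Picard 3.1.0 to remove duplicates and called peaks at p below 1e-05 with MACS2 2.2.9.1. Use of the input as MACS2 control is not given in the sources used here. The deposited fold is a ratio of pileup to local background, and strength is the deposited −log10 p-value. The −log10 q-value and score deposited by the authors did not enter the counts, except in a q minimum tried as an alternative. Summits were taken from the offset in the authors' lists. Fragments were solved from fold and p with the MACS2 pseudocount of 1.

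Transcript starts, exons and canonical transcripts came from GENCODE 44. Members, gene lists and the rule for named genes (members with a promoter peak in 2 or more lists, and the 5 strongest in each list) were chosen with earlier results of these data known. Under that rule, sequences were for the strongest peak of each list, and those at transcript starts were added. Counts have 95% Wilson intervals, and a count of 0 a limit of 3 counts. The alternatives were stricter p or q, the strongest 150 peaks, 500 or 5000 bp, any base of the peak, canonical starts, symbols with a final digit added (87 genes) or ending in L left out (77 genes), a run of at least 8 pyrimidines, a shorter promoter window and 2 that were added later. The counting was tested on simulated data. Software was pysam 0.24.0, samtools 1.23.1, matplotlib 3.10.9, scipy 1.17.1, numpy 2.4.6 and Python 3.11.15.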

Additional observations from a re-analysis of the deposited data

How the results depend on the processing

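Of 71 alternative values for the ribosomal protein genes, 59 stayed within 1.5 times the reported count and 12 did not, but 32 of the 59 were counts of 0 that stayed at 0 and say nothing about stability. With the strongest 150 peaks, 0 genes were left for GFI1 in THP1 cells, 0 for LSD1 in sg-NT K562 cells and 0 for both, beside 0.26% and 0.21% of other genes for GFI1 and LSD1. Within 500 bp the counts were 2 for GFI1, 3 for LSD1 and 0 for both, and within 5000 bp 7 for GFI1, 10 for LSD1 and 1 for SPI1. The alternatives added after the data were seen gave 3 for LSD1 with the nearest start only and 3 without repeated summit windows. The GFI1 core was in 2 promoters (2.44%) when 100 bp before the start were searched, beside 4.13% of other genes. The shares of other genes also fell within 500 bp, to 3.19% for GFI1 and 6.15% for LSD1, though their counts stayed within 1.5 times. No paired analysis was possible because every condition had 1 library and no test was made. The depth of 11 to 13 fragments at the median summit and the number of genes, 82, limit the shares that can be told from the background.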

Other observations

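Ribosomal protein genes have many processed pseudogenes, copies made from their mRNA that resemble the genes without their introns and promoters. Of 1570 annotated processed pseudogenes of the 82 genes, 1 held a GFI1 summit in THP1 cells (RPL9P33) and 1 an LSD1 summit in sg-NT K562 cells (RPL10P19), which was 0.0637% in each list. Of 9088 other processed pseudogenes, 16 (0.176%) and 24 (0.264%) held one, and these cover 15585 kb against 1359.8 kb. In the lists of SPI1 and of GFI1 in K562 cells, 0 of the 1570 held a summit, beside 11 (0.121%) of the others for SPI1, 2 (0.022%) for GFI1 in sg-NT cells and 0 in sg-LSD1 cells.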
